A study of Rattus norvegicus with 20 samples.

Results

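The genes described here are 10 ubiquitin ligases linked to skeletal muscle atrophy: Fbxo32, Trim63, Fbxo30, Fbxo31, Traf6, Mul1, Nedd4, Stub1, Trim32 and Trim54. They were chosen by symbol from the deposited table of gene counts, where each has 1 row among 32495 rows with a gene name. All 10 passed the filter on low counts and were among the 11716 genes tested. The samples were gastrocnemius muscles of female Fischer 344 rats, each bearing a Ward colorectal carcinoma. The tumours were left to grow for 2 weeks before chemotherapy began. TUMOUR STD rats ate the standard diet and received no chemotherapy. CHEMO STD rats ate the standard diet and received 2 cycles of CPT-11 (irinotecan) followed by 5-FU (5-fluorouracil), and CHEMO FO rats received the same cycles and were switched at the start of chemotherapy to a fish oil diet containing EPA and DHA. In the treated groups muscle was taken 7 days after the last cycle, and the sources used here give no separate day for TUMOUR STD. Each group was measured at a single time. Every group carried a tumour, so that an effect of the tumour itself was not measured. The age of the rats is given without a unit in the sources used here.

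A ubiquitin ligase (E3) brings a ubiquitin-loaded conjugating enzyme (E2) to a chosen protein, and chains of ubiquitin mark that protein for the proteasome or alter its signalling. In skeletal muscle, Fbxo32 (MAFbx, atrogin) and Trim63 (the muscle RING finger protein MuRF) are the classic atrophy markers. Their transcription is raised by FOXO factors and by the glucocorticoid receptor and is restrained by insulin and IGF signalling through Akt. Fbxo32 is the substrate-recruiting F-box subunit of a cullin ligase, whereas Trim63 sits on the sarcomere and carries its own RING domain.

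Libraries held 5422118 to 10857477 counts on named genes in TUMOUR STD, 3020821 to 10516783 in CHEMO STD and 3035841 to 9119394 in CHEMO FO. CHEMO STD libraries 1 and 2 differed far less than any other pair within a group (chi-square of 2.23 per gene, against 13.7 to 255.1 in the other 58 pairs), and their counts were summed and counted as 1 sample. This left 5 TUMOUR STD, 6 CHEMO STD and 8 CHEMO FO samples, 19 in all. Libraries TUMOUR STD 10 and CHEMO FO 18 stood apart, with a median correlation to their own group of 0.940 and 0.906 against at least 0.950 in every other sample. Summed keratinocyte markers stood at 549.9 CPM (counts of a gene per 1000000 counts) in TUMOUR STD 10 and at 115 CPM in CHEMO FO 16, against 2.45 to 8.07 CPM in the other 17 samples, and summed leukocyte markers at 231 CPM in CHEMO STD 7, against 21.1 to 39.3 CPM elsewhere. All 6 fast-fibre markers with 1 row each were detected in every group, with summed levels of 121159 to 236241 CPM. In whole muscle, fewer cells of a type and less RNA per cell cannot be told apart.

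Promoter sequences of 8 of the 10 genes were found in RefSeq (GRCr8), and 3 of these 8 are shown, each as the 250 bases before the transcription start. Fbxo32 and Traf6 had no entry, so their promoters were not searched. Trim63 is shown because it was the ligase with the largest ratio in CHEMO FO 18, Trim54 because it is a muscle RING finger relative of Trim63 that did not share this, and Fbxo30 because its level followed that of Fbxo32. The Trim63 window lies on the + strand at chr5:151816986-151817235, the Trim54 window on the - strand at chr6:30978476-30978725, and the Fbxo30 window on the + strand at chr1:7475589-7475838. Capitals mark matches, on either strand, to the FOXO motif TGTTTAC or to the glucocorticoid receptor half-site AGAACA, which reads TGTTCT on the other strand.
Trim63: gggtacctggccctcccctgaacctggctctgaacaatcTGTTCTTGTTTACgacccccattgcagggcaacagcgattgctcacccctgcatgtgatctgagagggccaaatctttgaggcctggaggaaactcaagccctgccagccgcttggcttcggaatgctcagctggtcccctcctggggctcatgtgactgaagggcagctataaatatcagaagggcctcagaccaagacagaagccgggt
Trim54: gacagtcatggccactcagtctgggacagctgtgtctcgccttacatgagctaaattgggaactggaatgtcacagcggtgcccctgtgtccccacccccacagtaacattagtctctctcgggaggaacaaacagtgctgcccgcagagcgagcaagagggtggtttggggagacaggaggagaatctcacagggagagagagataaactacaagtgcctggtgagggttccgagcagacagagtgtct
Fbxo30: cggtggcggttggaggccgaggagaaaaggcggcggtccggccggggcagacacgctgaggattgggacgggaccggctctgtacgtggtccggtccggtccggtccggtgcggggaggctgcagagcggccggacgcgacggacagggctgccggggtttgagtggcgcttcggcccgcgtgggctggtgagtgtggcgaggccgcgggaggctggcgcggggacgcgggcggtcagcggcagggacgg
In the Trim63 window the half-site, from 211 to 206 bases before the start, directly adjoins the FOXO motif, from 205 to 199 bases before it. The other 7 windows searched, which do not include Fbxo32, held neither motif. Over all 33469 promoters of the same length, 3.21% held the FOXO motif and 17.5% the half-site, and the palindrome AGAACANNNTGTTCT, which contains the half-site, was in 4 promoters and in none of the 8. Only exact matches were searched for. In the Trim63 window the stretch tgaacaatcTGTTCT differs from that palindrome in its first letter only. How often such near matches occur in promoters was not counted. These are matches of letters, not measured sites.

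Fbxo32 varied the most between rats of a group, and its highest levels were in CHEMO FO. In TUMOUR STD the 5 samples stood at 258, 354, 174, 169 and 161 CPM. In CHEMO STD the lowest, median and highest of the 6 samples were 216, 252 and 463 CPM, and in CHEMO FO the lowest, median and highest of the 8 were 171, 312 and 1865 CPM. CHEMO FO reached past CHEMO STD at both ends: 3 CHEMO FO samples lay below every CHEMO STD sample and 3 lay above every one, namely CHEMO FO 15 (594 CPM), CHEMO FO 17 (650.2 CPM) and CHEMO FO 18 (1865 CPM). Within groups, the SD of log2 CPM of Fbxo32 was larger than that of 96.6% of the genes tested, and than that of 89.0% without CHEMO FO 18.

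Trim63 was narrowly spread in 17 of the 19 samples. In TUMOUR STD it stood at 243, 226, 196, 249 and 218 CPM. In CHEMO STD the lowest, median and highest were 202, 224 and 259.9 CPM, and in CHEMO FO they were 194, 236 and 2589 CPM. The value of 2589 CPM was that of CHEMO FO 18, 11.4-fold the median of the other 7 samples of its group, and CHEMO FO 17 followed at 415 CPM, while the remaining 6 CHEMO FO samples lay between 194 and 258 CPM, inside the range of the standard diet groups but for 1 just below it. The SD of log2 CPM within groups was above that of 96.4% of genes with CHEMO FO 18 and above that of 32.6% without it.

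**Figure D1:**
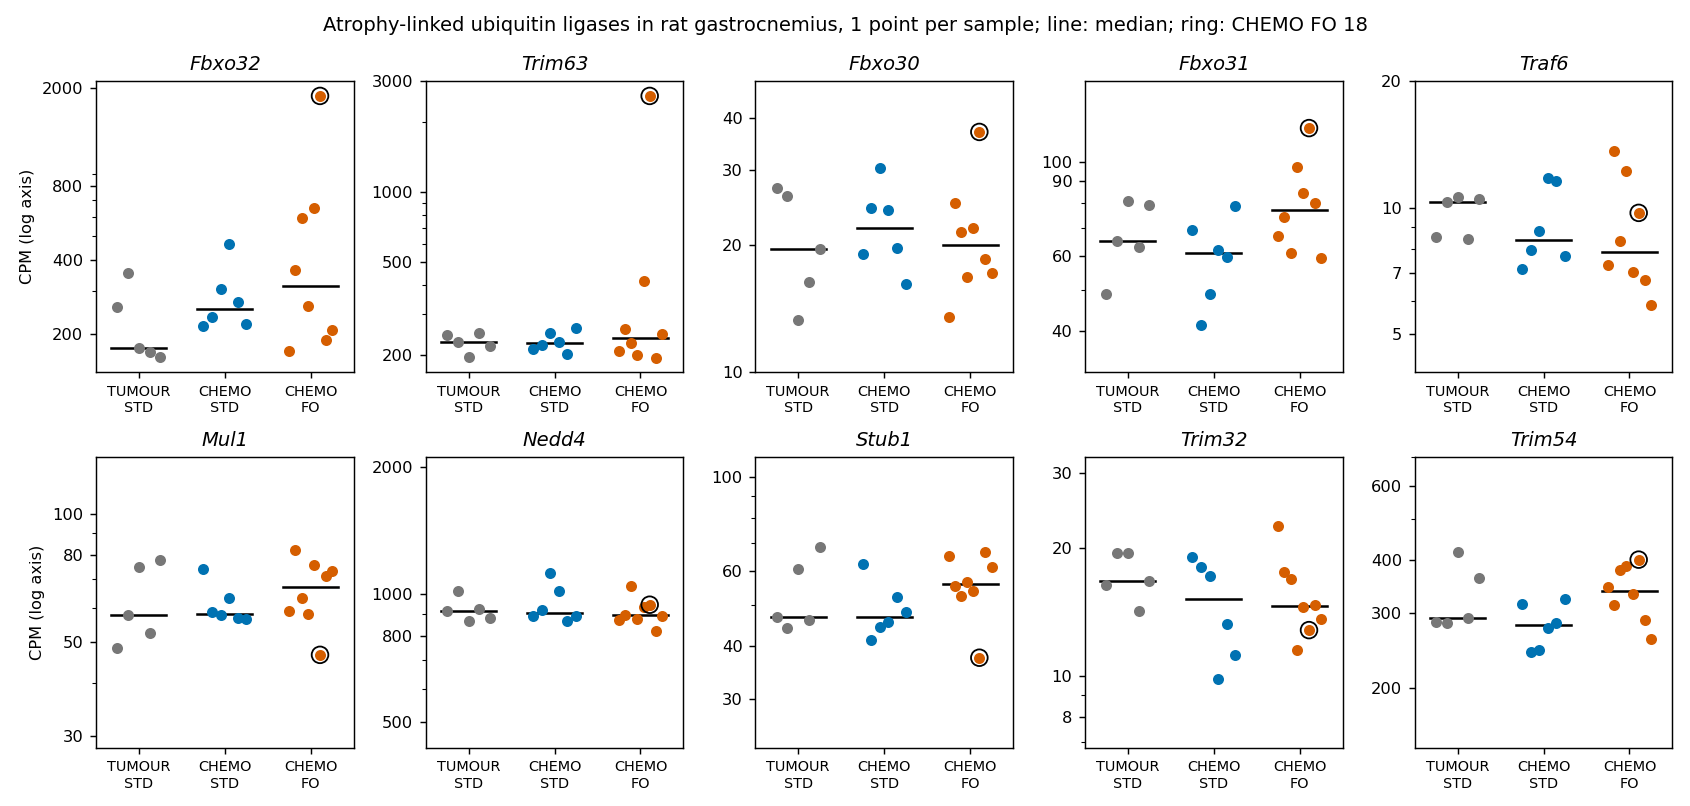
Level of each of the 10 ligases in each of the 19 samples, in CPM on a log axis, grouped by condition (TUMOUR STD grey, CHEMO STD blue, CHEMO FO orange), with the group median as a line and CHEMO FO 18 ringed. In Fbxo32 and Trim63 the ringed sample lies at 1865 and 2589 CPM, far above the rest, whereas in the other 8 panels the groups overlap within a narrow range.

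The chemotherapy effect was examined by setting CHEMO STD against TUMOUR STD. None of the 10 ligases was called (0 of 10), where a called gene had an edgeR p under 0.05 before adjustment and differed at least 1.5-fold. At p below 0.05 alone the number was also 0, and DESeq2 and limma voom called 0 as well. Over all genes tested, 2.38% were called in this comparison and 6.5% had p below 0.05. Of the ligases, 4 were higher and 6 lower in CHEMO STD, and their median log2 fold change was -0.06, against -0.0016 over all genes. The edgeR log2 fold change of Fbxo32 was 0.35 (95% interval -0.64 to 1.33) and that of Trim63 was 0.01 (-1.10 to 1.12). Without CHEMO FO 18, which widened the shared estimate of spread, the interval of Trim63 was -0.30 to 0.34, which leaves out a 1.5-fold change in either direction, and that of Fbxo32 was -0.31 to 1.02, which does not. Of the other ligases, Trim54 had the smallest p (log2 fold change -0.22, SE 0.138, adjusted p = 0.722 by edgeR with Benjamini-Hochberg adjustment over all genes tested).

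The diet effect was examined by setting CHEMO FO against CHEMO STD. Fbxo32 and Trim63 were called higher in CHEMO FO, 2 of 10 ligases, against 1.66% of all genes called and 0.615% called higher. Fbxo32 had a mean of 537 CPM ± 567 (SD, n = 8) against 284 ± 93.8 (SD, n = 6), a log2 fold change of 0.92 (SE 0.432, 95% interval 0.03 to 1.82 by edgeR). Trim63 had a mean of 542 CPM ± 830.1 (SD, n = 8) against 228 ± 21.8 (SD, n = 6), a log2 fold change of 1.25 (SE 0.494, 95% interval 0.23 to 2.27 by edgeR). In both genes the SD in CHEMO FO exceeded the mean. By edgeR with Benjamini-Hochberg adjustment both had an adjusted p of 0.974, and 0 of the 11716 genes passed an adjusted p of 0.05, with 528 at an unadjusted p below 0.05. DESeq2 likewise gave 0, and 1, the metallothionein Mt2A, with outlier counts kept.

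Both calls rested on CHEMO FO 18. Without that sample the log2 fold change of Fbxo32 was 0.30 (95% interval -0.31 to 0.91 by edgeR) and that of Trim63 was 0.14 (95% interval -0.16 to 0.43 by edgeR), and 0 of the 10 ligases were called, against 1.47% of genes. The interval of Trim63 without CHEMO FO 18 leaves out a 1.5-fold change. The call of Trim63 held when any of the other 18 samples was left out, with log2 fold changes of 1.23 to 1.38. The call of Fbxo32 was also lost without any one of CHEMO STD 1-2, 3, 4, 6 or 7, CHEMO FO 15 or CHEMO FO 17. DESeq2, which replaces counts it takes as outliers, gave 0.12 for Trim63, and 1.25 with those counts kept, whereas Fbxo32 stood at 0.92 by DESeq2 in both and was not called. With limma voom, which gives outlying samples less weight, the log2 fold change was 0.06 for Fbxo32 and 0.14 for Trim63, and neither was called. Counts of 20523 for Fbxo32 and 28486 for Trim63 lay behind the values of CHEMO FO 18, so counting error was small beside the distance between samples.

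**Figure D2:**
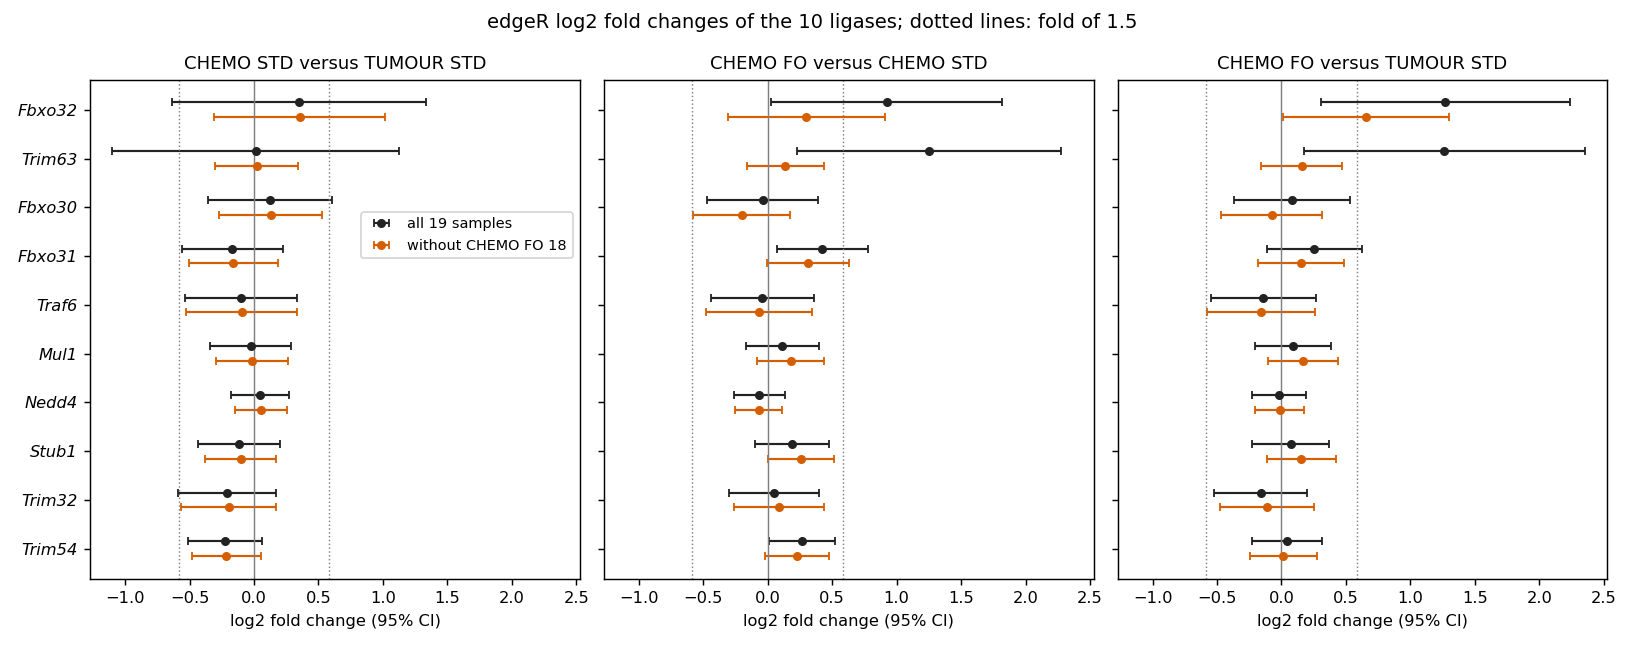
Log2 fold change of each ligase with its 95% interval by edgeR, in the chemotherapy comparison (left), the diet comparison (middle) and CHEMO FO versus TUMOUR STD (right), with all 19 samples (black) and without CHEMO FO 18 (orange). Dotted lines mark a 1.5-fold change. Leaving out CHEMO FO 18 moves Trim63 from 1.25 to 0.14 and Fbxo32 from 0.92 to 0.30 in the diet comparison, while the other 8 genes move little.

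In CHEMO FO versus TUMOUR STD, the comparison of chemotherapy with fish oil to no chemotherapy, Fbxo32 and Trim63 were again the called ligases, both higher (2 of 10, against 3.6% of all genes called and 1.09% called higher). This comparison shares its CHEMO FO samples with the diet comparison, so the pair is not a second observation. Fbxo32 had a log2 fold change of 1.27 (SE 0.467, 95% interval 0.30 to 2.23, adjusted p = 0.486 by edgeR with Benjamini-Hochberg adjustment), and 7 of 8 CHEMO FO samples lay above the TUMOUR STD median. This call held when any one of the 19 samples was left out. Without CHEMO FO 18 the log2 fold change was 0.65 (95% interval 0.01 to 1.301 by edgeR), and Fbxo32 was the 1 ligase called, against 2.36% of genes. It was lost without both outlying libraries (0.57) and without CHEMO FO 17 and 18 (0.42), by edgeR, and voom gave 0.39 with no call. Trim63 stood at 1.26 (SE 0.528, adjusted p = 0.516 by edgeR with Benjamini-Hochberg adjustment) and at 0.16 (95% interval -0.16 to 0.47) without CHEMO FO 18, and its call was also lost without TUMOUR STD 10 and CHEMO STD 7 together (1.22).

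**Figure D3:**
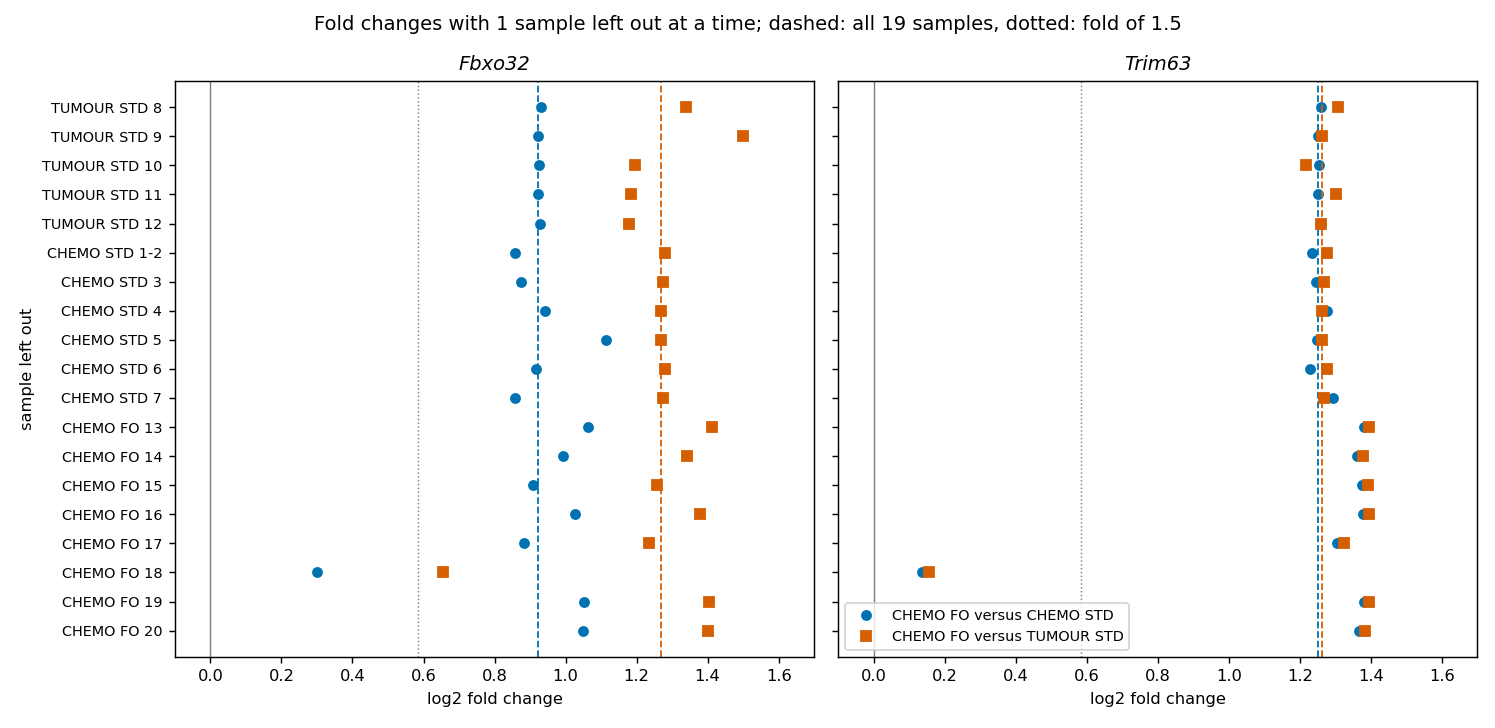
Log2 fold change by edgeR of Fbxo32 (left) and Trim63 (right) with the sample named on the vertical axis left out, in CHEMO FO versus CHEMO STD (blue circles) and CHEMO FO versus TUMOUR STD (orange squares). Dashed lines give the value with all 19 samples and dotted lines a 1.5-fold change. The points without CHEMO FO 18 lie apart, at 0.30 and 0.65 for Fbxo32 and at 0.14 and 0.16 for Trim63.

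Among the other F-box ligases, Fbxo30 (MUSA), which recruits substrates to a cullin ligase and is restrained by BMP signalling in muscle, was not called in any comparison. Its levels in TUMOUR STD were 27.3, 26.2, 13.3, 16.3 and 19.5 CPM. The lowest, median and highest were 16.1, 21.9 and 30.4 CPM in CHEMO STD and 13.5, 19.99 and 37.0 CPM in CHEMO FO, the last again in CHEMO FO 18. Its log2 fold changes lay between -0.04 and 0.12 over the 3 comparisons by edgeR. Fbxo31, an F-box protein known for the degradation of cyclin D, stood at 48.8, 65.1, 80.9, 63.1 and 79.3 CPM in TUMOUR STD, at 41.3, 60.9 and 78.7 CPM (lowest, median, highest) in CHEMO STD and at 59.2, 77.1 and 120.1 CPM in CHEMO FO, with 7 of 8 CHEMO FO samples above the CHEMO STD median. In the diet comparison its log2 fold change was 0.42 (SE 0.170, 95% interval 0.07 to 0.77 by edgeR), below the 1.5-fold threshold, and 0.31 (95% interval -0.0047 to 0.63) without CHEMO FO 18.

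Trim54, a muscle RING finger protein that binds microtubules and the sarcomere, was likewise past the p threshold but under the fold threshold in the diet comparison. Its levels were 287, 284, 293 and 363 CPM in 4 TUMOUR STD samples and 418 CPM in TUMOUR STD 10. The lowest, median and highest were 243, 281 and 325 CPM in CHEMO STD and 261, 339 and 402 CPM in CHEMO FO, where 5 of 8 samples lay above every CHEMO STD sample. The log2 fold change was 0.27 (SE 0.124, 95% interval 0.0080 to 0.52 by edgeR), and 0.23 (95% interval -0.02 to 0.48) without CHEMO FO 18. Against TUMOUR STD it was 0.04 (95% interval -0.23 to 0.31). At p below 0.05 alone the diet comparison thus held 4 of the 10 ligases (Fbxo32, Trim63, Fbxo31 and Trim54), against 4.51% of all genes, and without CHEMO FO 18 it held 1, Stub1, against 5.28%.

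Stub1 (CHIP), a chaperone-bound U-box ligase that clears misfolded proteins, was lowest in CHEMO FO 18 (37.5 CPM), below all 7 other samples of that group (52.3 to 66.5 CPM). In TUMOUR STD it stood at 46.7, 44.1, 60.8, 46.1 and 68.5 CPM, and in CHEMO STD at 41.3 to 62.4 CPM. The diet log2 fold change was 0.19 (95% interval -0.10 to 0.47 by edgeR), and 0.26 (95% interval 0.0011 to 0.51) without CHEMO FO 18. In RefSeq the gene overlaps Jmjd8, and no source used here says whether counting used strand. Its counts may hold reads of that neighbour. The same holds for Trim32, which overlaps Astn2.

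Trim32, a RING ligase of desmin and thin filaments, had 31 to 205 counts per library. Its medians were 16.7 CPM in TUMOUR STD, 15.2 in CHEMO STD and 14.6 in CHEMO FO, with log2 fold changes of -0.21 (95% interval -0.59 to 0.17) after chemotherapy and 0.05 (-0.30 to 0.39) for diet. Mul1, an outer mitochondrial membrane ligase that targets mitofusin, had medians of 57.7, 58.2 and 67.4 CPM in the same order and log2 fold changes of -0.02 and 0.11. As in Stub1, its lowest CHEMO FO value was that of CHEMO FO 18 (46.5 CPM, with the other 7 at 58.0 to 82.3 CPM).

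Traf6, which builds the ubiquitin chains of NF-kappaB signalling, was the ligase with the fewest counts, 25 to 109 per library. Its medians were 10.3, 8.39 and 7.83 CPM in TUMOUR STD, CHEMO STD and CHEMO FO. Of the 8 CHEMO FO samples, 5 lay below every TUMOUR STD sample and 2 above every one, and the log2 fold change of -0.14 between these groups (95% interval -0.55 to 0.27) was within the spread. Nedd4, a HECT ligase of membrane proteins, was the steadiest, with medians of 915, 905 and 892.5 CPM and an SD within groups larger than that of 0.393% of genes only. Its 3 intervals by edgeR all lay within -0.27 and 0.27 in log2 fold change, so a 1.5-fold change was outside each. In no comparison did the groups separate without overlap for any of the 10 ligases, against 0.495%, 0.0683% and 0.324% of genes in the chemotherapy, diet and CHEMO FO versus TUMOUR STD comparisons.

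Across the 19 samples, with group means removed, Fbxo32 and Fbxo30 varied together (Pearson r = 0.782, permutation p = 0.00013, adjusted over 5 relations 0.00065, and Spearman rho = 0.726, permutation p = 0.00078, adjusted 0.0039). The relation held without the 2 samples farthest from the median of Fbxo32, CHEMO FO 17 and 18 (r = 0.688, permutation p = 0.00295), and without CHEMO FO 18 alone (r = 0.660, adjusted permutation p = 0.0156). Fbxo32 and Trim63 also correlated (r = 0.80, permutation p = 0.00504, adjusted 0.0126, and rho = 0.637, permutation p = 0.00852, adjusted 0.0213), but this rested on CHEMO FO 17 and 18: without them r was 0.502 (permutation p = 0.179). CHEMO FO 15 and CHEMO STD 5 had high Fbxo32 (594 and 463 CPM) with Trim63 at 226 and 227 CPM, within the range of the other samples. The 3 further relations did not pass, and each is given with its adjusted permutation p: Fbxo32 with Foxo1, the transcription factor (r = 0.470, rho = 0.0737, p = 0.15), Trim63 with Foxo1 (r = 0.566, rho = -0.0596, p = 0.15) and Trim63 with Trim54 (r = 0.252, rho = 0.0614, p = 0.384). Without CHEMO FO 18 these were -0.06, -0.45 and -0.19. The samples share a library protocol and differ in depth.

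**Figure D4:**
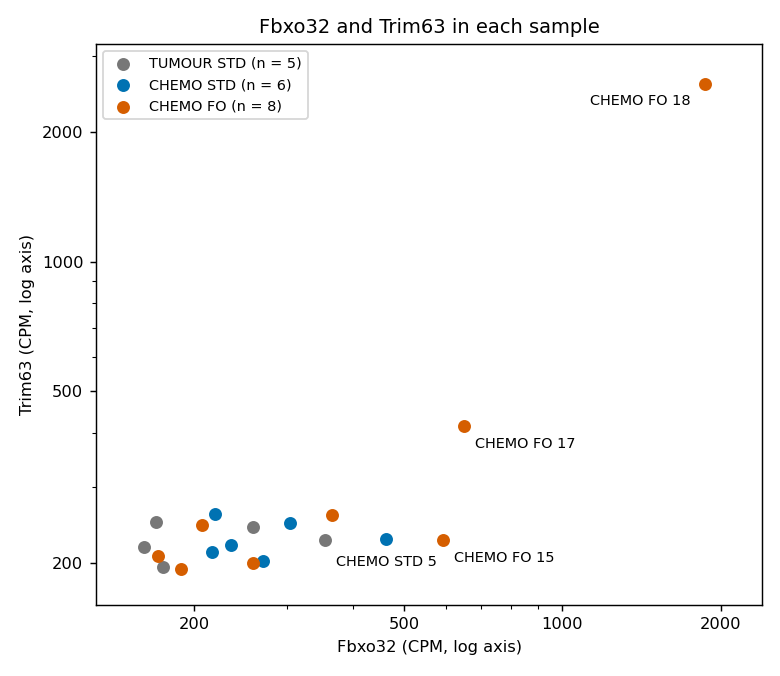
Trim63 against Fbxo32 in each of the 19 samples, both in CPM on log axes, coloured by condition. CHEMO FO 18 (1865 and 2589 CPM) and CHEMO FO 17 (650.2 and 415 CPM) lie apart at the upper right, and the other 17 samples spread along Fbxo32 with Trim63 between 194 and 259.9 CPM.

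The genes whose group-centred log2 CPM was most like that of Fbxo32 over the 19 samples were the proteasome activator Psme4 (r = 0.901), the polyamine acetyltransferase Sat1 (0.893), the histone demethylase Kdm3a (0.892), Hnrnph2 (0.889) and Pnpla7 (0.889). For Trim63 they were the myogenic factor Myf6 (0.976), Zfand2a (0.959), Ppp1r15a (0.957), Arrdc3 (0.951) and Ptges3 (0.944). Each of these was higher in CHEMO FO 18 than the median of the other 7 CHEMO FO samples, for example Psme4 at 1606.5 against 319 CPM and Myf6 at 554 against 101 CPM. This largely follows from the way the genes were chosen, since CHEMO FO 18 held the highest level of both ligases. Over the 18 samples without CHEMO FO 18, the genes most like Fbxo32 were Rffl (0.891), Rb1 (0.861), Klhl38 (0.844), Rora (0.835) and Rc3h1 (0.834), none of them shared with the first set. Those most like Trim63 were then Myf6 (0.817), Cog6 (0.801), Zfand5 (0.773), Nedd9 (0.772) and Rassf1 (0.768), with Myf6 in both.

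CHEMO FO 18 was compared with the median of the other 7 CHEMO FO samples, gene by gene, as a description of a single sample with no test. Ratios were taken after adding 0.5 CPM to both levels, and the genes named in this comparison were chosen after their values were seen. Of all genes tested, 6.79% were at least 2-fold above that median and 9.76% at or below 0.5 of it. Among the 10 ligases, 2 were at least 2-fold above (Fbxo32 at 7.20-fold and Trim63 at 11.4-fold) and 0 were at or below 0.5. Fbxo30 followed at 1.97-fold. Of 15 tested atrophy response genes, a list of other genes that rise in wasting muscle, 10 were at least 2-fold above and the median ratio was 5.10. These included the metallothionein Mt2A (727 against 2.93 CPM), the stretch-responsive Ankrd1 (348 against 16.7 CPM), Pdk4, which holds back pyruvate oxidation (1115 against 84.1 CPM), the lysosomal protease Ctsl (1031 against 111 CPM), the cell cycle inhibitor Cdkn1a (183 against 20.5 CPM), Gadd45a (77.4 against 8.49 CPM), Ampd3 (149 against 22.8 CPM) and the autophagy genes Map1lc3b (215 against 79.9 CPM) and Gabarapl1 (138 against 51.5 CPM).

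Of 26 upstream regulators, 8 were at least 2-fold above in CHEMO FO 18, among them Cebpd (92.2 against 13.9 CPM), Tnfrsf12a, the TWEAK receptor (72.9 against 17.2 CPM), Stat3 (310.1 against 101 CPM), the glucocorticoid-induced Fkbp5 (67.9 against 24.1 CPM, with CHEMO FO 15 higher still at 111.5 CPM) and Klf15 (62.5 against 27.9 CPM), and Foxo1 (48.4 against 18.5 CPM), and 2 were at or below 0.5, Foxo6 (0.277) and Ppargc1a (0.475). Foxo6 was near the floor (0.636 against 3.60 CPM). Of 18 substrates and partners of the ligases, 5 were at or below 0.5, including muscle creatine kinase Ckm (16411 against 33736 CPM), fast troponin Tnni2 (4312 against 9541 CPM), Actn3 (6829 against 14107 CPM) and Myod1 (10.0 against 26.7 CPM), while the chaperones Hspa8 and Hspb8 stood at 2.62-fold and 2.11-fold. Of 9 denervation genes 4 were at least 2-fold above, with Runx1 at 4.06-fold, and 1 was at or below 0.5, the embryonic myosin Myh3 (0.365). Of 29 other muscle ligases 2 were, Cblb (2.63-fold) and Klhl40 (2.37-fold), with Fbxw7 at 0.427, of 19 ubiquitin, E1 and E2 genes 1 (Ube2g2), with Ube2d1 at 0.311, of 14 deubiquitinases 2 (Usp14 and Psmd14), with Tnfaip3 at 0.281, and of 12 cullin scaffold genes 0.

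In the same sample, all 10 macrophage markers summed to 758 CPM against 199.6 to 315 CPM in the other CHEMO FO samples, the fast-fibre markers to 121159 CPM against 194607 to 236241 CPM, and the smooth muscle markers to 71.3 CPM against 155 to 259.8 CPM. Fbxo32 was 7.20-fold and Trim63 11.4-fold higher there while fast-fibre markers were lower, and the part of the cell make-up in these values was not tested. CHEMO FO 17, next highest in both ligases, shared some of these genes: Pdk4 stood at 1047 CPM and Cebpd at 36.6 CPM, but Mt2A was at 4.92 CPM, Ctsl at 130.2 CPM and Ankrd1 at 15.1 CPM. In that sample 3 of 15 atrophy response genes were at least 2-fold above the median of the 6 others, against 1.09% of all genes tested.

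**Figure D5:**
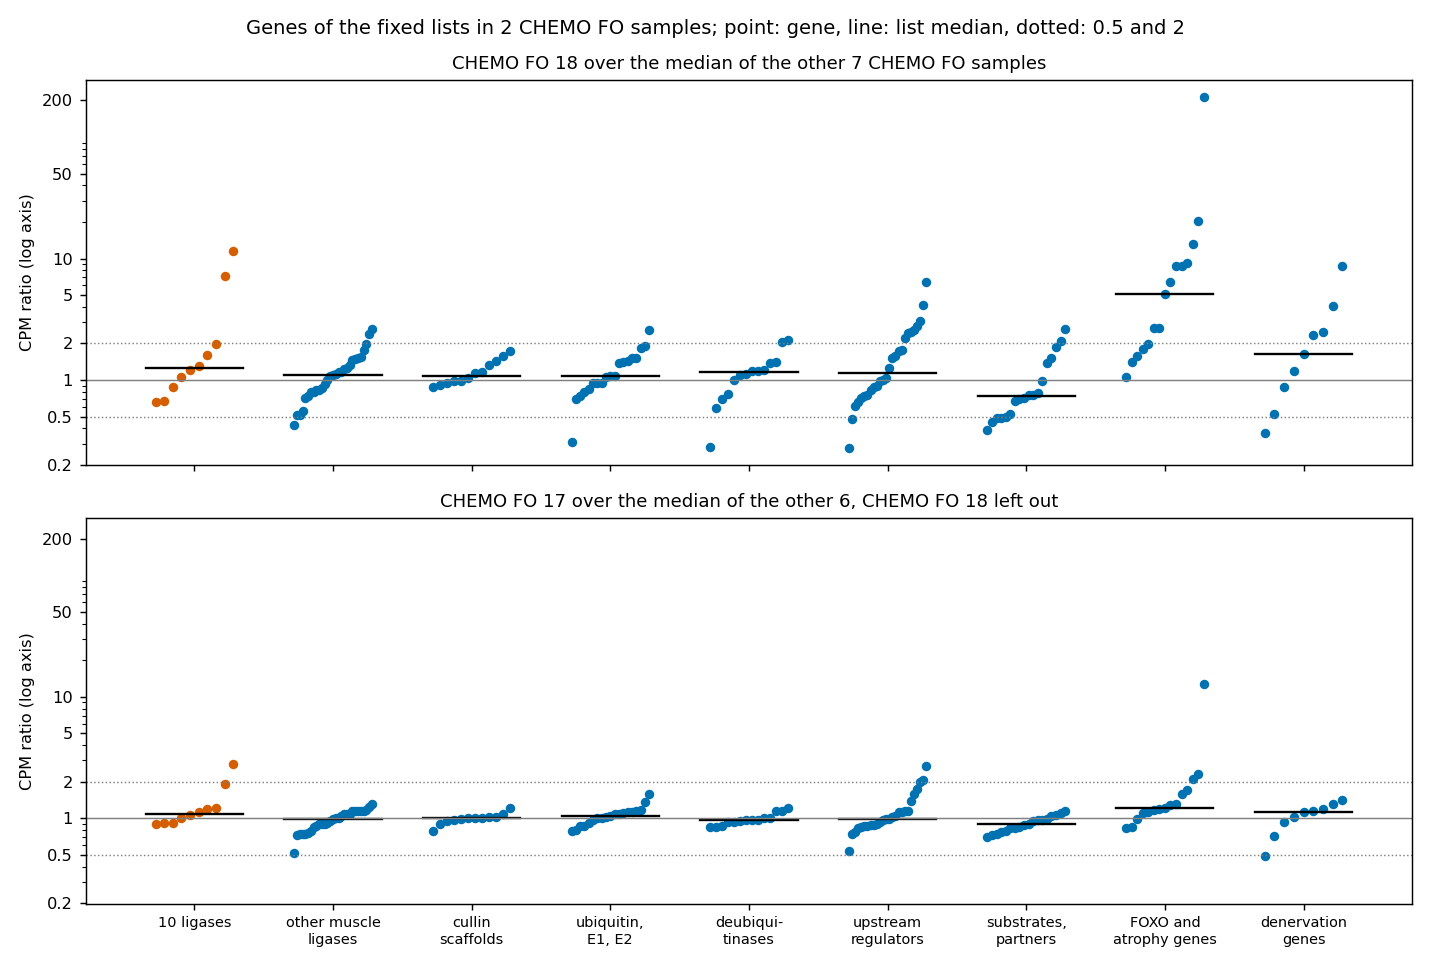
Ratio of the level in CHEMO FO 18 to the median of the other 7 CHEMO FO samples (top) and of CHEMO FO 17 to the median of the 6 left (bottom), on log axes, for each tested gene of the 10 ligases (orange) and of 8 other lists (blue), with list medians as lines. The atrophy response genes, labelled FOXO and atrophy genes on the axis, have a median ratio of 5.10 in CHEMO FO 18. The list was not limited to FOXO targets. The cullin scaffolds lie between the dotted lines at 0.5 and 2.

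In CHEMO STD versus TUMOUR STD, where 2.38% of all genes were called, 0 of 29 other muscle ligases, 0 of 12 cullin scaffold genes and 0 of 19 ubiquitin, E1 and E2 genes were called by edgeR, with 2, 0 and 0 at p below 0.05 alone, and DESeq2 with outlier counts kept also called 0 in each. Of the 12 cullin scaffold genes, which include Skp1, Cul1 and Rbx1, the core to which Fbxo32 binds, 10 were higher (median 0.23 on the log2 scale, against -0.0016 over all genes). Whether these genes vary together between samples was not tested. Of 14 deubiquitinases, Uchl5, bound to the proteasome, was called higher (14.9 against 9.52 CPM, log2 fold change 0.63, 95% interval 0.04 to 1.22 by edgeR, and 0.63 without CHEMO FO 18), a call that held in 20 of 33 alternatives. Of 18 substrates and partners, the sarcomere crosslinker Flnc was called lower (1538 against 2652 CPM, log2 fold change -0.79, SE 0.204, 95% interval -1.21 to -0.36 by edgeR). All 5 TUMOUR STD samples were above every CHEMO STD sample for Flnc (1969 to 3287 against 1185 to 1925 CPM), where 0.495% of all genes separated without overlap. Flnc was named for its call in these same samples, so the separation adds nothing to the call. Of 26 upstream regulators, Foxo6 was called lower (2.27 against 4.41 CPM, log2 fold change -0.93, 95% interval -1.80 to -0.08 by edgeR), a call that held in 29 of 33 alternatives. Its levels were near the floor, at 0.954 CPM in CHEMO STD 5, the library with the fewest counts (3020821). Uchl5, Flnc and Foxo6 each had an adjusted p of 0.719 by edgeR with Benjamini-Hochberg adjustment, and the smallest over all genes was 0.652. The call of Flnc held in 33 of 33 alternatives. With DESeq2 on only the 2 conditions compared, its adjusted p was 0.0109, and 16 genes passed an adjusted p of 0.05. No gene passed in the main fit or in any other alternative of this comparison. Without CHEMO FO 18, the upstream regulator Cebpd was also called, higher (0.98, 95% interval 0.12 to 1.85, adjusted p = 0.550 by edgeR with Benjamini-Hochberg adjustment). It was called in 7 of 33 alternatives, and CHEMO STD 1-2 stood at 43.1 CPM against 6.68 to 18.9 CPM in the rest of CHEMO STD. Of 15 atrophy response genes 0 were called by edgeR (0 at p below 0.05, 0 by DESeq2 with outlier counts kept), 9 were higher, and the median was 0.11. Without CHEMO FO 18 Ampd3 was called lower, and it was called in 8 of 33 alternatives. Of 9 denervation genes 7 were lower, the median was -0.13, and 0 were called, with 1 at p below 0.05 by edgeR and 0 called by DESeq2 with outlier counts kept.

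In the diet comparison, 14 of 15 atrophy response genes were higher in CHEMO FO (median log2 fold change 0.61, against -0.01 over all genes) and 4 were called higher, Cdkn1a, Ampd3, Ankrd1 and Mt2A, against 0.615% of all genes. Without CHEMO FO 18, 8 were higher, the median was 0.01 and 0 were called. The largest change was that of Mt2A (log2 fold change 5.38, SE 1.42), which was 0.91 (95% interval -0.12 to 1.95 by edgeR) without CHEMO FO 18. Among upstream regulators, Foxo1 was called higher (22.6 against 14.9 CPM, log2 fold change 0.59, 95% interval 0.08 to 1.11 by edgeR), and not without CHEMO FO 18 (0.31, -0.09 to 0.70), where Foxo6 was called higher instead (0.71, 0.04 to 1.39). Adjusted p by edgeR with Benjamini-Hochberg adjustment was 0.974 for Foxo1, and 0.889 for Foxo6 without CHEMO FO 18. Of 33 alternatives, 21 called Foxo1 and 5 called Foxo6.

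In CHEMO FO versus TUMOUR STD, 12 of 15 atrophy response genes were higher (median 0.47) and 5 were called higher, Cdkn1a, Gadd45a, Pdk4, Ctsl and Mt2A, against 1.09% of all genes. Without CHEMO FO 18, Pdk4 alone was called (log2 fold change 1.36, 95% interval 0.0058 to 2.71, adjusted p = 0.553 by edgeR with Benjamini-Hochberg adjustment). With all samples its log2 fold change was 1.89. The call held in 29 of 33 alternatives, where the lowest log2 fold change was 0.11. Pdk4 stood at 126, 135, 70.6, 24.4 and 112 CPM in TUMOUR STD and at 1047 and 1115 CPM in CHEMO FO 17 and 18, with the other 6 CHEMO FO samples at 58.3 to 184 CPM. Cebpd, a transcription factor of inflammatory and glucocorticoid responses, was called higher with and without CHEMO FO 18 (log2 fold changes by edgeR of 1.60, with an interval of 0.51 to 2.69, and 0.99, with one of 0.14 to 1.85), and Cebpb with it (0.74, 0.08 to 1.403) but not without it (0.53, -0.07 to 1.13). With all samples, adjusted p by edgeR with Benjamini-Hochberg adjustment was 0.503 for Pdk4, 0.486 for Cebpd and 0.524 for Cebpb.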

How the data were processed

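Gastrocnemius RNA was sequenced after ribosomal depletion with a stranded total RNA kit. The authors deposited unnormalised counts per gene, made per the labels with Trim Galore 0.4.1, TopHat2 2.0.10 and Bowtie2 on the Rnor 6 rat genome. No source used here says how strand and multiple hits were counted. Rows with no gene name (388, 0.102 to 0.272% of counts) were left out. Counts were tested in R 4.3.3 with edgeR 4.0.16 (quasi-likelihood, TMM factors, filterByExpr with a minimum count of 10 and total of 15) over all 19 samples. A call was p below 0.05 before adjustment with a fold of at least 1.5. Benjamini-Hochberg values over all 11716 genes are given for the main ligase calls and for some list genes. By edgeR with this adjustment, the smallest over all genes were 0.652 after chemotherapy, 0.974 for diet and 0.426 for CHEMO FO versus TUMOUR STD. No call of the main fit thus passed an adjusted p of 0.05. DESeq2 1.42.0, limma 3.58.1 voom, other scalings, filters and left-out samples were alternatives. Scripts were tested on simulated data. CPM used library sizes scaled by the TMM factors. Correlations used 100000 permutations within groups. Genes named were the 10 ligases, the called genes of each pathway list (up to 3 a direction) and the 5 most like Fbxo32 or Trim63, but for 1 gene not reported here. Ankrd1, Ctsl and the genes named for CHEMO FO 18 alone fall outside this rule and were chosen after their values were seen. The ligases and lists were chosen with earlier results of these data known. The p-values of the comparisons set each group difference against the spread between these samples. Those of the correlations come from the permutations within groups.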

Additional observations from a re-analysis of the deposited data

Results flagged for a closer look

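Of 105 groups of samples examined for a sample far from the rest of its group (Dixon's test), 23 held one. Chance gives about 1 in 20 for a single group, but the count cannot be set against it, since many of the genes examined were named for calls that rest on CHEMO FO 18 and the items are correlated. Among the ligases these were Fbxo32 in CHEMO STD 5 (463 CPM) and Fbxo32 and Trim63 in CHEMO FO 18 (1865 and 2589 CPM). CHEMO FO 18 also stood apart in Foxo1 (48.4 CPM), Cebpd (92.2 CPM), Mt2A (727 CPM), Ampd3 (149 CPM), Cdkn1a (183 CPM), Gadd45a (77.4 CPM), summed macrophage markers (758 CPM) and, at the low end, summed fast-fibre markers (121159 CPM). CHEMO STD 1-2 stood apart in Cebpd (43.1 CPM), Cebpb (40.1 CPM), Cdkn1a (32.3 CPM) and summed fibroblast and tendon markers (11243 and 1187 CPM). Other samples apart from their group were CHEMO STD 5 in Ampd3 (31.5 CPM), TUMOUR STD 12 in Mt2A (5.68 CPM), CHEMO STD 7 in summed leukocyte and adipocyte markers (231 and 571 CPM), TUMOUR STD 10 in summed Schwann cell and keratinocyte markers (492 and 549.9 CPM) and CHEMO FO 16 in summed keratinocyte markers (115 CPM).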

How the results depend on the processing

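Of 990 alternative log2 fold changes of the 10 ligases, 908 kept their direction and side of the threshold, 35 lost the call and 47 changed sign, and the cause was not tested. The diet comparison called 2 ligases, but 0 with DESeq2 in both fits, with voom, without both outlying libraries (TUMOUR STD 10 and CHEMO FO 18), without CHEMO FO 17 and 18, and without TUMOUR STD 10, CHEMO STD 7 and CHEMO FO 18. It called 1 with the 2 conditions alone in the fit, at a 2-fold threshold, without TUMOUR STD 10 and CHEMO STD 7 and with DESeq2 outlier counts kept, 4 with no fold threshold, and 0 to 2 with 1 sample left out (8 left-out samples gave 0 or 1). CHEMO FO versus TUMOUR STD called 2, but 1 with DESeq2 in both fits, with the 2 conditions alone, without TUMOUR STD 10 and CHEMO STD 7 and without CHEMO FO 18, and 0 with voom and in the other 3 sets of left-out libraries, with 1 to 2 when 1 sample was left out. The settings without CHEMO FO 17 and 18, without TUMOUR STD 10, CHEMO STD 7 and CHEMO FO 18, and with outlier counts kept were chosen after seeing the data.

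Genes called after chemotherapy numbered 279, and 971 with no filter, 762 with no fold threshold, 64 at 2-fold, 135 without TUMOUR STD 10 and CHEMO STD 7, 170 without CHEMO FO 18 as well, and 161 to 603 with 1 sample left out. For diet they numbered 195, and 722, 528 and 58 under the first 3 of these. For CHEMO FO versus TUMOUR STD they numbered 422, and 1116, 1059 and 112 under these, 201 without both outlying libraries, 280 without TUMOUR STD 10 and CHEMO STD 7, 214 without CHEMO FO 18 as well, and 273 to 584 with 1 sample left out.

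The sign changes were in small log2 fold changes of ligases not called, but for Trim63 without CHEMO FO 17 and 18 (-0.0427 for diet and -0.0267 against TUMOUR STD). After chemotherapy, Trim63 was -0.0238 with voom, -0.0295 without both outlying libraries, -0.0775 without TUMOUR STD 10 and CHEMO STD 7, -0.0718 without CHEMO FO 18 as well, and -0.0364 to 0.0499 with 1 sample left out. Mul1 was 0.0437 with voom, 0.00645 with library totals, 0.0245 with CHEMO STD 1 and 2 kept apart, 0.0606, 0.0757 and 0.0816 in the same 3 sets, and -0.0924 to 0.0711 with 1 left out. Fbxo30 was -0.000423 without both outlying libraries and -0.00486 to 0.248 with 1 left out, and Nedd4 -0.00609 to 0.0866. For diet, Traf6 was 0.0110 with CHEMO STD 1 and 2 kept apart and -0.158 to 0.0460 with 1 left out, Trim32 -0.000975 so, -0.0160 without TUMOUR STD 10 and CHEMO STD 7 and -0.0358 to 0.146 with 1 left out, and Fbxo30 -0.203 to 0.0775 with 1 left out. Against TUMOUR STD, CHEMO FO had Fbxo30 at -0.135 with voom, -0.210, -0.0390 and -0.201 in the same 3 sets, -0.123 without CHEMO FO 17 and 18 and -0.0739 to 0.215 with 1 left out, Nedd4 at -0.0425 to 0.0208 and Trim54 at -0.00544 to 0.142.

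Without both outlying libraries the correlations were 0.534 (Fbxo32 and Trim63), -0.0178 (Fbxo32 and Foxo1), -0.404 (Trim63 and Foxo1) and -0.0955 (Trim63 and Trim54). With 1 sample left out they were 0.546 to 0.863 (no longer past the threshold at 0.546 and 0.801), -0.0601 to 0.562, -0.445 to 0.619 and -0.195 to 0.330.

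No paired analysis was possible, since each rat was assigned at random to a single treatment group and the labels give no pairing. Among the ligases, depth limited Traf6, Trim32 and Fbxo30 most, with lowest counts of 25, 31 and 46.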
